A study of Mus musculus with 3 samples.

Results

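Mural cells, the pericytes of capillaries and the smooth muscle cells of larger vessels, are recognised by a small set of marker genes, and 9 of these were followed in RNA-seq counts of cells sorted from mouse lung: Pdgfrb, Mcam, Cspg4, Anpep, Abcc9, Heyl, Higd1b, Postn and Vtn. They were chosen by gene symbol, and each of the 9 symbols matched 1 row among the 48709 genes of the deposited table. The set mixes kinds of protein: Pdgfrb, Mcam, Cspg4 and Anpep encode proteins of the cell surface, Abcc9 a subunit of a membrane channel, Heyl a nuclear repressor, Higd1b a protein of the mitochondrial HIG1 domain family, and Postn and Vtn secreted proteins of matrix and plasma. The data are 3 total RNA libraries in 1 group, labelled wild type (WT) lung smooth muscle cells. The mice carried a tamoxifen-inducible Cre recombinase (CreERT2) under smooth muscle actin and the red fluorescent protein tdTomato, were given daily tamoxifen (75 mg/kg, 10 days) from an age of 8 weeks, and were killed 2 months later. The Cre line is named for smooth muscle actin, which pericytes express less of than smooth muscle does, and the sources used here do not give the gate of the sort. No second group exists, so levels are described within these libraries, and nothing in the labels says that each library came from its own mouse, so the spread between them may be technical.

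Pericytes share a basement membrane with endothelium and are recruited to it when the receptor encoded by Pdgfrb binds PDGF-BB released by endothelial cells. Notch signals from endothelium act through Notch3 in mural cells, and Heyl is among the repressors that Notch receptors switch on. Several of the 9 genes are not restricted to mural cells: in lung, fibroblasts also express Pdgfrb and Postn, endothelium expresses Mcam, and myeloid cells and fibroblasts express Anpep, the surface antigen CD13. In bulk counts, fewer cells of a type and less RNA per cell cannot be told apart.

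Library totals were 16877297 to 18896263 counts, and a count of 0 allows a level of up to 0.159 to 0.178 CPM (3 counts; CPM is counts per 1000000 counts of the library). Marker lists of other lung cells differed between the libraries. Summed over 8 genes each, endothelial markers had 756, 440 and 570 CPM in WT libraries 1, 2 and 3, fibroblast markers 401, 983 and 912 CPM, and myeloid markers 874, 269 and 356 CPM. Airway epithelial markers had the largest sums, with 13799, 2816 and 7931 CPM, of which Scgb1a1 alone had 13192, 2632 and 7641 CPM. Alveolar epithelial markers had 2193, 477 and 580 CPM. By these sums library 1 was thus high in epithelial, endothelial and myeloid transcripts and low in fibroblast transcripts. Single genes weighed heavily there, with 704 CPM for Lyz2 of the myeloid and 1352 CPM for Sftpc of the alveolar list. Of the 8 myeloid markers 1, Itgam, was lowest in library 1, and of the 8 alveolar markers 2, Napsa and Rtkn2. Smooth muscle markers summed to 85.5, 106 and 79.2 CPM, and lymphoid markers to 917, 1018 and 1061 CPM, so transcripts of the labelled cell type were present at a low level. No gene of these 7 lists was at 0 counts in all libraries, although the smooth muscle gene Cnn1 had 0 in library 1.

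The 9 genes were expressed at low to moderate levels. The 4 highest, Abcc9, Mcam, Pdgfrb and Anpep, had a mean of at least 10 CPM, 8 of the 9 reached 1 CPM, and Vtn stayed near 0. Higd1b only just reached 1 CPM, at 1.02 ± 0.563, and with TMM-scaled library sizes 7 of the 9 did. Among the 23317 genes with at least 10 counts, 38.4% reached a mean of 10 CPM and 72.7% a mean of 1 CPM. The median of the 9 genes was 3.23 ± 0.13 log2(CPM + 1), beside 2.52 ± 0.06 over those 23317 genes (SD, n = 3). Vtn is the member that lies below that count minimum.

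**Figure D1:**
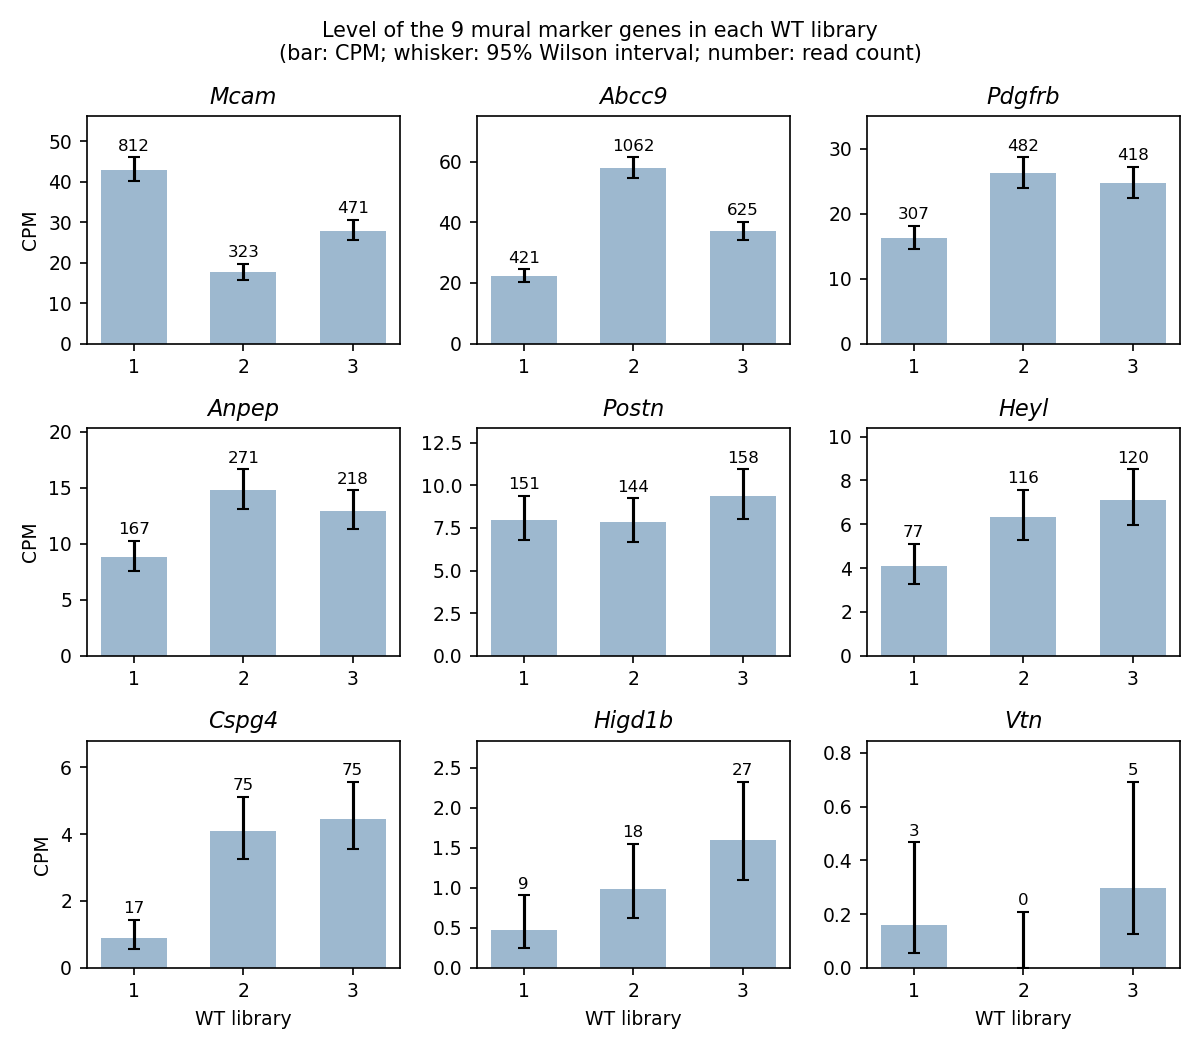
Level of each of the 9 genes, 1 panel per gene with its own axis from 0. Bars are CPM in WT libraries 1, 2 and 3, whiskers are 95% Wilson intervals of counting error, and the numbers are read counts; Mcam was highest in library 1 at 812 counts, where Abcc9 and Cspg4 were lowest at 421 and 17.

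Pdgfrb, the receptor for PDGF-BB (ENSMUSG00000024620), had 307, 482 and 418 counts in WT libraries 1, 2 and 3, or 16.2, 26.3 and 24.8 CPM. Library 1 was low and the other two were close to each other. The mean was 22.4 ± 5.40 CPM (SD, n = 3), which ranked 5264 among 22005 nuclear protein-coding genes. The libraries differed beyond counting error by a chi-square test of homogeneity with TMM-scaled library sizes (adjusted p = 2.74e-08, Benjamini-Hochberg over 23317 genes). That test called 70.0% of all genes tested, so a call is common at this depth.

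Mcam encodes CD146, an adhesion protein of mural and endothelial cells (ENSMUSG00000032135, chr9:44134469-44142727). It ran opposite to Pdgfrb, with 812, 323 and 471 counts, or 43.0, 17.6 and 27.9 CPM in libraries 1, 2 and 3. Library 1 was highest and library 2 lowest, a 2.44-fold span, and the mean was 29.5 ± 12.8 CPM (chi-square adjusted p = 9.43e-51). Endothelial markers had the same order over the libraries, with 8 of 8 lowest in library 2 and 7 of 8 highest in library 1, whereas 35.0% of all tested genes were lowest in library 2 and 30.6% highest in library 1. Library 1 was also highest for 8 of 8 airway epithelial, 6 of 8 alveolar epithelial and 6 of 8 myeloid markers, so the order of Mcam is not particular to endothelium. The part of RNA from any of these cell types in the Mcam values was not tested.

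Cspg4 encodes NG2, a large chondroitin sulfate proteoglycan used to stain pericytes (ENSMUSG00000032911, chr9:56865104-56899870). It had 17, 75 and 75 counts, or 0.900 CPM in library 1 against 4.09 and 4.44 CPM in libraries 2 and 3. The 95% Wilson interval in library 1, 0.562 to 1.44 CPM, lay below those of libraries 2 and 3, which began at 3.26 and 3.55 CPM. Its highest level was 4.94-fold its lowest, the widest span among the 8 genes detected in every library, and its mean was 3.14 ± 1.95 CPM (chi-square adjusted p = 1.18e-08).

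Anpep, the aminopeptidase N or CD13 that trims peptides at the cell surface (ENSMUSG00000039062, chr7:79821803-79861059), had 167, 271 and 218 counts, or 8.84, 14.8 and 12.9 CPM. Library 1 was again lowest. The mean was 12.2 ± 3.03 CPM (chi-square adjusted p = 1.73e-05). Myeloid cells and fibroblasts also carry this antigen. In library 1, 6 of 8 myeloid markers were highest, beside 30.6% of all tested genes, and 8 of 8 fibroblast markers lowest, beside 46.4%. The part of either cell type in the Anpep values was not tested.

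Abcc9 encodes SUR2, the regulatory subunit of an ATP-sensitive potassium channel whose pore in mural cells is Kir6.1, the product of Kcnj8. Abcc9 (ENSMUSG00000030249, chr6:142587862-142702315) had 421, 1062 and 625 counts, or 22.3, 57.9 and 37.0 CPM. Library 2 was highest and library 1 lowest, a 2.6-fold span, and the mean of 39.1 ± 17.9 CPM was the highest of the 9 (chi-square adjusted p = 8.06e-65). Kcnj8, which lies 16.2 kb from Abcc9 on chromosome 6, had 19, 26.6 and 19.4 CPM and was also highest in library 2.

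Heyl (ENSMUSG00000032744, chr4:123233556-123249875) had 77, 116 and 120 counts, or 4.07, 6.32 and 7.11 CPM. Library 1 was lowest, and the Wilson intervals of libraries 2 and 3 overlapped each other. The mean was 5.83 ± 1.57 CPM (chi-square adjusted p = 0.00901). Higd1b, a marker of lung pericytes in single-cell studies of mice (ENSMUSG00000020928, chr11:102835849-102838040), had 9, 18 and 27 counts, or 0.476, 0.981 and 1.6 CPM. Library 1 was lowest and library 3 highest, but the intervals of libraries 1 and 2 overlapped, at 0.251 to 0.905 and 0.620 to 1.55 CPM (chi-square adjusted p = 0.0188 over the 3 libraries).

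Postn encodes periostin, a matrix protein of fibroblasts and of lung pericytes (ENSMUSG00000027750, chr3:54361109-54391037). It was the most even of the 9 genes, with 151, 144 and 158 counts, or 7.99, 7.84 and 9.36 CPM. No library stood apart, and Postn was the 1 gene among the 8 tested that the chi-square test did not call (adjusted p = 0.755). Its mean was 8.40 ± 0.837 CPM, a coefficient of variation of 9.96%. Fibroblast markers, by contrast, were lowest in library 1 for 8 of 8 genes, beside 46.4% of all tested genes.

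Vtn encodes vitronectin, a plasma and matrix glycoprotein that liver secretes and that brain pericytes express in mice (ENSMUSG00000017344, chr11:78499091-78502324). It had 3, 0 and 5 counts, or 0.159 and 0.296 CPM in libraries 1 and 3, and the 0 in library 2 allows up to 0.163 CPM. With 8 counts in all it lay under the minimum of 10 and was not tested. The liver transcripts Alb, Apoa1, Ttr, Serpina1a, Ahsg and Fgb summed to 5.72, 2.07 and 1.19 CPM, with 49, 14 and 7 counts for Alb. Library 1 was highest for 3 of these liver genes, Alb among them, and library 2 for 3, namely Apoa1, Ttr and Fgb. Vtn lay below Alb in each library, but in library 3 by only 5 against 7 counts. There Vtn lay above Apoa1, Ttr and Fgb, and none of these values is scaled by length.

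Of the 9 genes 8 had enough counts for the test and 7 differed between libraries beyond counting error, beside 70.0% of all genes. Without library 1 the count was 3 of 8, namely Abcc9, Mcam and Anpep, beside 38.2% of genes in that setting. Library 1 was the lowest of the 3 for 6 of the 9 genes (Pdgfrb, Abcc9, Cspg4, Higd1b, Heyl and Anpep), and for 46.4% of all tested genes. With TMM-scaled libraries it was again lowest for 6 of 9, beside 38.6% of all genes. In edgeR the biological coefficient of variation common to 16614 genes was 0.266. Its values for single genes were 0.217 for Pdgfrb, 0.253 for Postn, 0.257 for Anpep, 0.285 for Abcc9, 0.294 for Mcam, 0.303 for Heyl and 0.495 for Cspg4. edgeR draws the values of single genes toward a trend over all genes. Postn, the most even in CPM, was not the lowest on this scale, which does not show that it varied more than Pdgfrb.

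**Figure D2:**
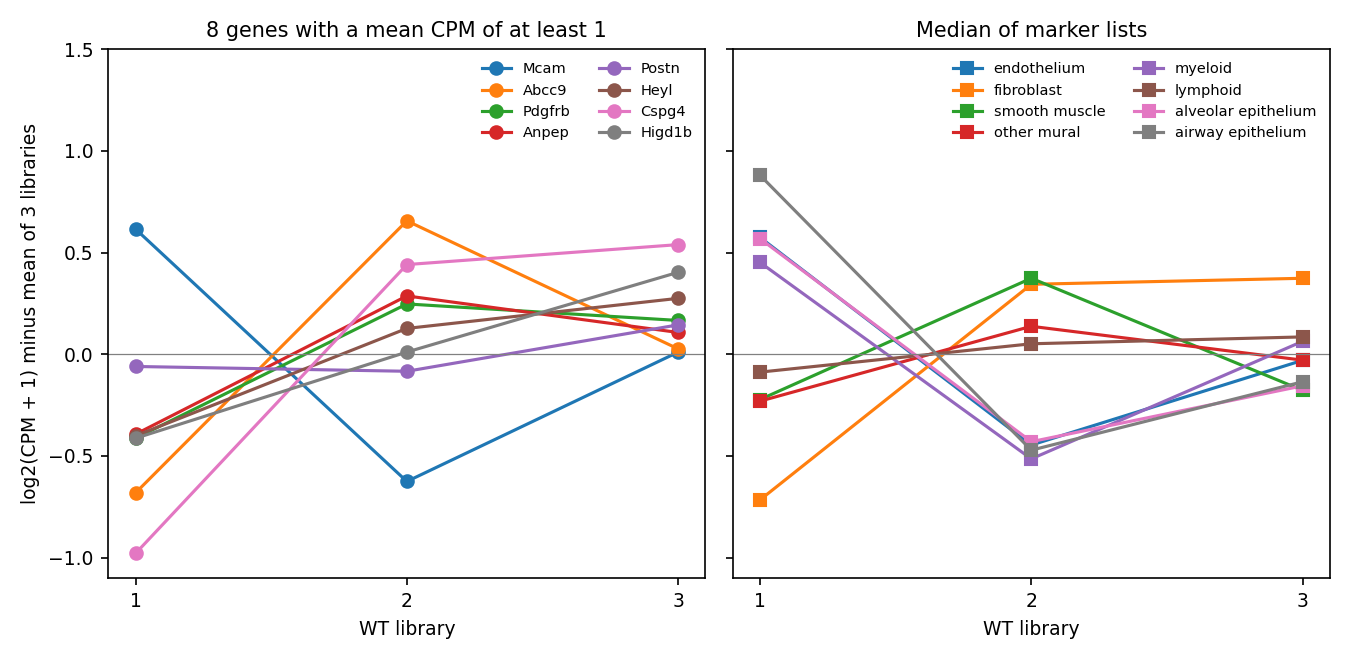
Left, log2(CPM + 1) of the 8 genes with a mean of at least 1 CPM, each minus its own mean over the 3 WT libraries; right, the median of the same quantity over the genes of 8 marker lists with a mean of at least 1 CPM. Mcam lies 0.62 above its mean in library 1 and the endothelial, alveolar and airway epithelial medians 0.57, 0.57 and 0.88 above, while Cspg4 lies 0.98 and the fibroblast median 0.72 below.

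The deviations from each gene's own mean put Mcam at 0.62, -0.63 and 0.01 on the log2(CPM + 1) scale in libraries 1, 2 and 3, beside an endothelial median of 0.57, -0.45 and -0.03. Alveolar epithelium had a median of 0.57, -0.43 and -0.16, airway epithelium 0.88, -0.47 and -0.14, and myeloid markers 0.45, -0.51 and 0.06, so these 4 lists were, like Mcam, highest in library 1 and lowest in library 2. Cspg4 had -0.98, 0.44 and 0.54, beside a fibroblast median of -0.72, 0.34 and 0.37. Pdgfrb had -0.41, 0.25 and 0.17, and Abcc9 -0.68, 0.66 and 0.03. Smooth muscle markers had a median of -0.22, 0.37 and -0.18, and 15 other mural genes, of which 10 had a mean of at least 1 CPM, a median of -0.23, 0.14 and -0.03. The 9 genes therefore differ in shape. Cspg4 was lowest in library 1, as were 8 of 8 fibroblast markers and 46.4% of all tested genes (38.6% with TMM). Its 75 counts in each of libraries 2 and 3 put library 3 highest by library total but not with TMM. Without library 1 it did not differ between them (chi-square adjusted p = 0.998). Library 3 was highest for 4 of 8 fibroblast markers (2 of 8 with TMM). Of all tested genes, 30.6% were highest in library 1, 27.0% in library 2 and the remainder in library 3, by library total. Abcc9 was highest in library 2, as were 7 of 8 smooth muscle markers (6 of 8 with TMM), 4 of 8 fibroblast markers (6 of 8 with TMM) and 27.0% of all tested genes by library total. The share over all genes with TMM is not given for the highest library. What these lists contribute to the 9 genes was not tested.

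Of the listed genes, that with the most similar deviations was sought for the 8 with a mean of at least 1 CPM, using the largest difference over the 3 libraries as the measure. For Mcam this was Egfl7, a factor secreted by endothelium, at 0.045 log2 units, with 12 of 16944 genes as near, and next the alveolar epithelial gene Ager at 0.074, with 47. For Pdgfrb it was Anpep at 0.059, with 168 genes as near. Abcc9 was nearest to Lama4, a laminin chain of vascular basement membrane, at 0.13, with 95 genes as near, and Cspg4 to the collagen gene Col1a2 at 0.18, with 137. Postn was nearest to Notch2 at 0.025, with 140 genes as near. Higd1b was nearest to the leukocyte integrin Itgam at 0.079, with 261 genes as near, and the counts of Higd1b were too few to place it closely. Of the 50-base words of Itgam 66.3% also occur in other genes, so the level of Itgam is less certain. With 3 libraries many genes have any given shape, so likeness is a description.

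Levels of different genes are comparable only per length of transcript. In CPM per kilobase of exon, Mcam had 12.8, 5.25 and 8.33, Abcc9 2.66, 6.91 and 4.42, and Pdgfrb 2.97, 4.79 and 4.52 in libraries 1, 2 and 3. On the log2(CPM per kilobase + 0.1) scale, Abcc9 did not separate from either: Mcam exceeded Abcc9 by 0.91 ± 1.31 and was lower in library 2, and Abcc9 exceeded Pdgfrb by 0.11 ± 0.36. Mcam exceeded Pdgfrb by 1.02 ± 0.98 in 3 of 3 libraries, just beyond the SD and by only 0.13 in library 2. Anpep followed at 2.94 ± 0.733 CPM per kilobase, below Pdgfrb by 0.46 ± 0.05 log2 units in 3 of 3 libraries. Heyl, Higd1b and Postn came next at 1.14 ± 0.308, 1.20 ± 0.664 and 0.965 ± 0.0962 CPM per kilobase, and Heyl lay below Anpep by 1.30 ± 0.17 log2 units. In the order of the mean log2 values, where Heyl stood just above Higd1b, neighbours among these 3 differed by 0.04 ± 0.43 and 0.16 ± 0.71, within their SD. Cspg4, spread over 11931 exon bases, had 0.263 ± 0.164 CPM per kilobase and lay 1.68 ± 0.75 below Postn in 3 of 3 libraries. Vtn was last at 0.0747 ± 0.0730, and its gap of 1.02 ± 1.09 to Cspg4 did not exceed its SD. Of 8 neighbouring pairs 3 thus differed by more than their SD. The count was 5 of 8 without library 1, and also 5 without library 2 or with the longest transcript as the length. On 3 libraries an exact permutation of signs, two-sided, has a smallest p of 0.25, so none was run.

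**Figure D3:**
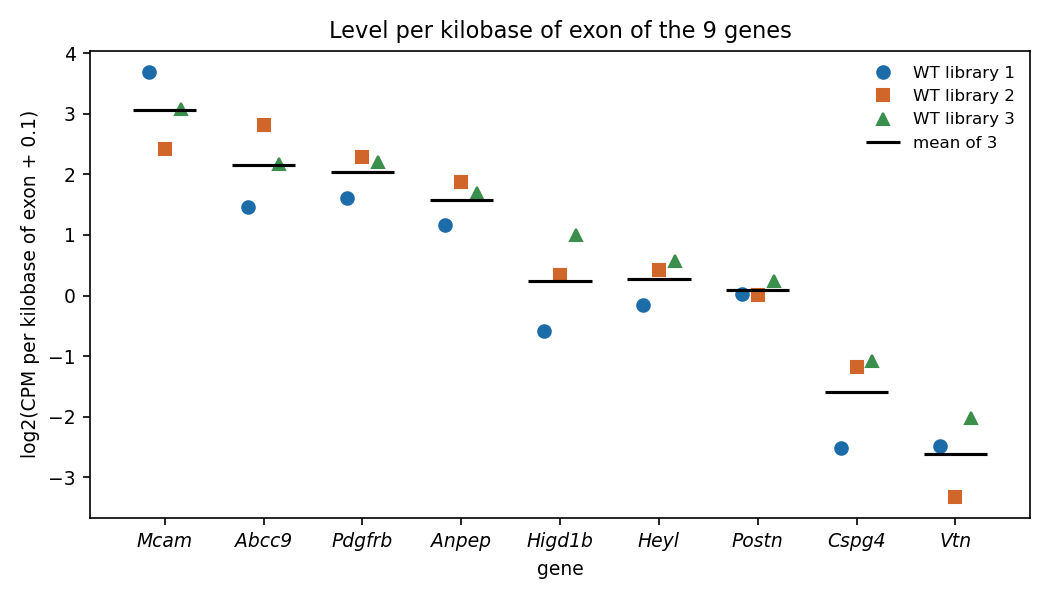
log2(CPM per kilobase of exon + 0.1) of the 9 genes, ordered by mean CPM per kilobase. Points are WT libraries 1, 2 and 3 and lines their mean; the points of Abcc9 overlap those of Mcam and of Pdgfrb at the top, while Heyl, Higd1b and Postn overlap in the middle, and Cspg4 and Vtn lie lowest.

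Each gene was then set beside a related gene inside each library, as a log2 ratio of (CPM per kilobase + 0.1), and 10 of 11 ratios had the same sign in the 3 libraries. Pdgfrb lay below its paralogue Pdgfra, the receptor of lung fibroblasts, by ratios of -0.20, -0.32 and -0.62 in libraries 1, 2 and 3. The size of this gap depended on the length used, with a mean of -0.91 ± 0.22 for the longest transcript. Of the PDGF ligands, Pdgfb, whose product recruits pericytes, had 16.8, 11.0 and 15 CPM, Pdgfd 7.12 ± 2.27, Pdgfa 2.57 ± 0.897 and Pdgfc 1.42 ± 0.873 CPM. Pdgfb was highest in library 1, where Pdgfrb was lowest. The test called 5 of 5 genes of this list, beside 70.0% of all genes tested.

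For the potassium channel, Abcc9 lay below its partner Kcnj8 per kilobase, at -1.45, -0.59 and -0.77. Without the length the sign turned, to a log2(CPM + 1) ratio of 0.74 ± 0.46, since the exons of Abcc9 add up to 8373 bases and those of Kcnj8 to 2548. The pancreatic forms of the same channel were near 0, with 0, 7 and 5 counts for the pore gene Kcnj11 and 0, 0 and 1 for the subunit gene Abcc8. Abcc9 had 2108 counts in the 3 libraries together.

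Among the Notch-responsive repressors, Heyl exceeded Hey2 by 3.01, 2.87 and 2.79 on the log2 scale, a ratio that rests on the 17 counts of Hey2 and was 4.15 with a pseudocount of 0.01. Heyl and Hey1, a repressor also found in endothelium, had no common order, with ratios of -0.91, 1.32 and -0.22. Hey1 itself had 5.19, 1.42 and 5.33 CPM and was lowest in library 2. Notch3, the receptor of mural cells, had 3.33, 4.74 and 3.26 CPM, far below Notch2 at 242 ± 25.5 and Notch1 at 131 ± 4.73 CPM, an order that per kilobase was 0.467 ± 0.103 against 22.4 ± 2.36 and 9.21 ± 0.332. Of 13 Notch pathway genes 10 were called by the test, near the 70.0% of all genes tested. The ligands Jag1 and Dll4, at 10.1 ± 5.28 and 9.23 ± 4.0 CPM, were highest in library 1.

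Higd1b lay below its paralogue Higd1a, a broadly expressed protein of the respiratory chain, by -2.95, -2.06 and -1.49. Higd1a was even over the libraries at 15.3, 15.7 and 16.7 CPM, although 24.4% of its 50-base words also occur in other genes, so its level is less certain. Higd2a had 13.8 ± 2.22 CPM, and Higd1c had no count in any library, which allows up to 0.178 CPM in the shallowest.

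Mcam exceeded Alcam, another adhesion protein of the immunoglobulin superfamily, by 1.46, 1.0 and 1.03, and both were highest in library 1 and lowest in library 2. Without the length Mcam and Alcam were close, at 0.09 ± 0.24 on the log2(CPM + 1) scale. Lama4, a chain of the laminin that Mcam binds, had 40.8, 93.9 and 71.7 CPM, the opposite order to Mcam. Laminin chains Lamb1 and Lamc1, at 30.0 ± 10.2 and 87.9 ± 27.0 CPM, were also lowest in library 1, whereas Lama5 had 18.5, 8.99 and 6.81 CPM and was highest there. The test called 6 of 6 genes in this list, beside 70.0% of all genes tested.

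Anpep exceeded Enpep, the aminopeptidase A of pericytes and kidney, by 0.63, 1.03 and 0.52. Of the same peptidase family Lnpep and Erap1, which are broadly expressed, had 195 ± 4.97 and 55.4 ± 3.42 CPM. Lvrn and Trhde had 4 and 11 counts over the libraries.

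Postn lay far below its paralogue Tgfbi, a matrix protein of macrophages and fibroblasts, by -3.87, -4.76 and -3.87. Tgfbi had 55.6, 102 and 64.6 CPM, so library 2 was high for Tgfbi alone of this pair. Receptors for periostin and vitronectin were present: Itgb1 had 232 ± 39.5 CPM, Itgav 50.9 ± 6.75, Itgb3 32.6 ± 5.07 and Itgb5 26.0 ± 3.50 CPM, and platelets and leukocytes also use several of them. The urokinase receptor Plaur, which binds vitronectin, had 64.2 ± 11.4 CPM. Fn1, the other adhesive glycoprotein compared, had 1136, 1194 and 1226 counts where Vtn had 3, 0 and 5. The test called 7 of the 10 genes of this list, the same share as the 70.0% of all genes tested.

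Cspg4 and Pdgfrb, which label the same pericytes by staining, differed by ratios of -4.13, -3.47 and -3.29, with library 1 lowest. The ratio depends on the pseudocount, being -4.15 ± 0.85 with 0.01.

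**Figure D4:**
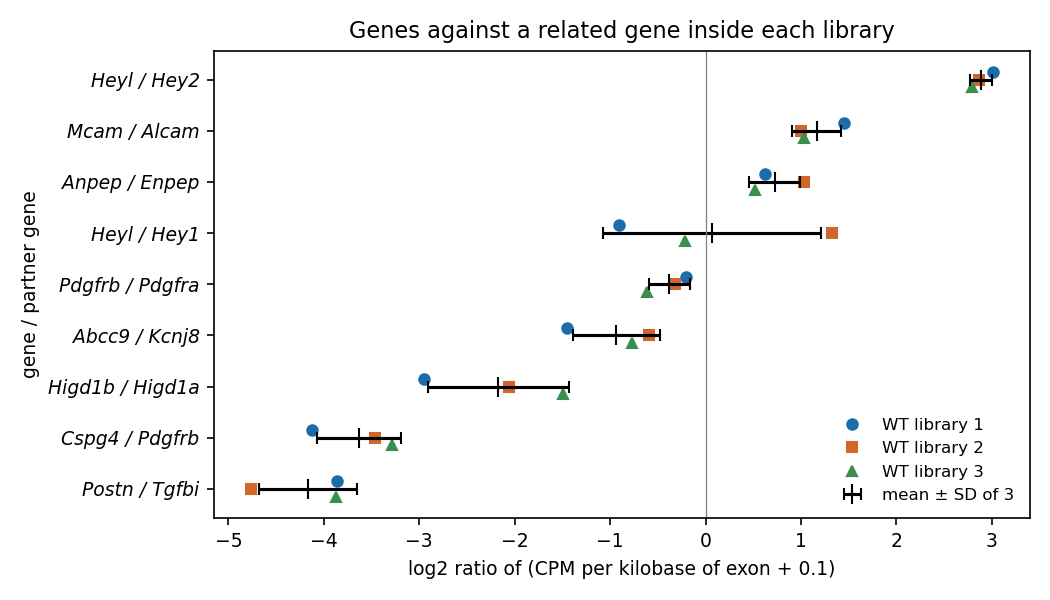
log2 ratio of (CPM per kilobase of exon + 0.1) between a gene and a related gene, for 9 of the 11 pairs (pairs with Abcc8 and Vtn, which had 1 and 8 counts, are left out). Coloured points are WT libraries 1, 2 and 3 and black bars the mean ± SD of 3; Heyl to Hey1 crosses 0 and Postn to Tgfbi lies lowest at -4.17 ± 0.51.

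Of 15 other genes of pericytes and mural cells, 10 had a mean of at least 1 CPM, and 2 of at least 10, namely Kcnj8 at 21.7 ± 4.31 and Gucy1a1, a subunit of the nitric oxide receptor, at 14.5 ± 4.14 CPM. Enpep followed at 8.16 ± 1.90 CPM. Rgs5, a regulator of G protein signalling high in pericytes of many organs, had 29, 25 and 30 counts, and Cox4i2, a lung isoform of a respiratory chain subunit, 46, 18 and 20. Cox4i2 was highest in library 1, where Higd1b was lowest. Fam162b had no count and the pericyte factor Foxs1 3 counts, all in library 2. The median of the list was lower than that of the 9 genes in each library. Of its 13 tested genes 9 were called, near the 70.0% of all genes tested.

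The upstream sequence is shown for Abcc9, Cspg4 and Mcam, which differed widely between libraries and not in the same direction. It comes from RefSeq promoter windows on GRCm38.p6 (250 bases before to 50 after a start) and was limited to bases ahead of every GENCODE transcript of the gene. Windows were searched for 6 of the 9 genes, with a pair of windows for Postn, and not for Pdgfrb, Higd1b and Heyl. Capitals mark matches on either strand to TGGGAA, the core bound by the Notch effector RBPJ, and to GGGCGG, the GC box.
Abcc9 (chr6:142702316-142702524, minus strand): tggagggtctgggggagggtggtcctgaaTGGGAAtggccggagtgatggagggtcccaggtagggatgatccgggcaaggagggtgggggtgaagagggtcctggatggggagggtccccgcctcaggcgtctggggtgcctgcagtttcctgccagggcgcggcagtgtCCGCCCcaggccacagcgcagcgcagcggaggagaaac
Cspg4 (chr9:56864854-56865032, plus strand): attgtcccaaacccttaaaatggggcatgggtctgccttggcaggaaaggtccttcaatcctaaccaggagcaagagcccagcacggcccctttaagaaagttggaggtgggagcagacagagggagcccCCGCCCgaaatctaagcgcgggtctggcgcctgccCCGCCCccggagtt
Mcam (chr9:44134408-44134468, plus strand): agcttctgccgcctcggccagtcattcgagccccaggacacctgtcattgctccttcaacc
In the whole windows of 300 bases, the RBPJ core occurred once in Abcc9 and not in Cspg4 or Mcam, and the GC box at 1, 2 and 5 places in Abcc9, Cspg4 and Mcam. Vtn, which was near 0 in these cells, held the RBPJ core at 3 places. Of all 32851 windows, 25.6% held the RBPJ core and 35.7% the GC box, so both are common, and a match is a description of the letters, not of binding. The ETS core CGGAAG, which 16.9% of windows held, was found in none of the 6 genes, and the E-box CANNTG, held by 72.3%, was found in Abcc9, Mcam, Vtn and Anpep. These motifs were searched separately, and RBPJ and ETS cores can share the letters GGAA.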

How the data were processed

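The authors deposited a table of whole-number read counts per mouse Ensembl gene, not normalized, for 3 libraries. Per the submitters' processing notes, Trimmomatic 0.38, STAR 2.6.1d, featureCounts 1.6.3 and DESeq2 1.18.1 were used, without settings. The builds listed there are human, but of 48349 gene IDs shared with GENCODE M21 (GRCm38) 88.4% had identical coordinates. The sources used here do not say how strand was handled. Exons of Abcc9 and Mcam overlap antisense genes by 158 and 17 bases, with at most 11 counts on those genes in a library, and at most 1.95% of any member's 50-base words occur in other genes. Per the labels' protocols, stranded total RNA libraries were made after DNase treatment, so unspliced RNA may be counted. Columns named as controls were matched to the WT titles by number.

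CPM used library totals, and per-kilobase values the union of GENCODE exons. Variation was tested by chi-square on genes with at least 10 counts (SciPy 1.17.1, TMM factors of 0.951, 0.983 and 1.07 from edgeR 4.0.16 in R 4.3.3). On simulated counts of these 3 libraries over 22832 genes with counting error alone, 85.1% of 1.5-fold and 100% of 2-fold changes were recovered, with 7 false among 197 calls. Library totals without TMM were used there, and changes were placed only in genes with more summed counts than Cspg4 and Higd1b had. The recovery rates thus do not cover genes with so few counts. Intervals are 95% Wilson, and they cover counting error only. Alternatives were library totals, DESeq2 1.42.0 size factors, protein-coding totals, other filters, lengths and pseudocounts, and leaving out each library.

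Members, 18 gene lists and 11 pairs were chosen with earlier results of these data known. Named by rule were the 9 genes, the pairs, the highest genes of each list, genes without counts and the nearest genes; Notch3, Rgs5, Cox4i2, Foxs1, Jag1, Dll4 and some others given for their role were chosen with values known, as were the promoters and motifs. Some genes taken by the rule are not reported here. For 3 symbols the Ensembl ID was used.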

Additional observations from a re-analysis of the deposited data

How the results depend on the processing

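The number of genes of the 9 that varied between libraries was 7 with TMM scaling, library totals, DESeq2 size factors, protein-coding totals and no filter on low counts, and 6 with edgeR's expression filter, which drops Higd1b. It ranged from 3 to 7 when each library was left out, with 3 without library 1. The number of genes at a mean of at least 1 CPM was 8, and 7 with TMM, with DESeq2 size factors and without library 3. At 10 CPM it was 4, and 5 per 1000000 protein-coding counts. The median level of the 9 genes was 3.91 ± 0.07 log2(CPM + 1) per 1000000 protein-coding counts, 3.08 ± 0.14 with a pseudocount of 0.1, 1.21 ± 0.30 per kilobase of exon, and 3.16 to 3.27 when each library was left out. Neighbours in the order per kilobase that differed by more than their SD numbered 5 with the longest transcript as length and 3 to 5 when each library was left out. Of the ratios to related genes, that of Abcc9 to Kcnj8 turned to 0.74 without length. Several others moved in size, among them Pdgfrb to Pdgfra, from -0.38 ± 0.21 to -0.91 ± 0.22 with the longest transcript and -1.22 ± 0.22 without length. Higd1b to Higd1a moved from -2.17 ± 0.74 to -3.10 ± 0.35 without length. Per 1000000 protein-coding counts the means of 8 of the 9 genes moved by more than their SD, as the smaller denominator requires. No paired analysis was possible because there is 1 group. Depth limits Vtn, Higd1b and Cspg4 most, with 8, 54 and 167 counts.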
